A study of Homo sapiens with 12 samples.

Results

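The comparison set FaDU against JHU-029, both established human squamous carcinoma lines of the head and neck, when both carried only a control shRNA. The members were chosen by their labels alone, namely the arrays labelled shControl, which gave 6 of the 12 arrays of the series, 3 for FaDU and 3 for JHU-029. The other 6 arrays, from cells given an shRNA against TP63, were not part of the comparison. RNA of all 6 samples was collected 72 h after lentiviral delivery of the control vector, so both groups shared infection and harvest time. The labels list RPMI, DMEM or DMEM/F12 as growth medium, each with serum, without saying which line grew in which, so line and medium cannot be told apart. Each group is 1 cell line from 1 tumour. Titles of FaDU replicates 1 and 2 carry the word new, which the labels do not explain, and nothing says that replicates were grown separately. The p-values therefore reflect the spread among these arrays only, which may be technical. The series asks how p63 and ACTL6A, a subunit of the SWI/SNF chromatin remodelling complex, act on the Hippo-YAP pathway in squamous carcinoma, and the control arrays show both lines without the shRNA against TP63.

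Squamous epithelium is built on a basal layer whose cells make the keratin pair KRT5 and KRT14, hold on to the basement membrane through hemidesmosomes and to each other through desmosomes, and depend on the transcription factor p63. Simple, single-layered epithelia instead make KRT8, KRT18 and KRT19, and squamous carcinoma cells can express both kinds. The Hippo kinases keep the coactivators YAP and TAZ out of the nucleus, and when released these bind TEAD factors and drive genes such as CCN1 and CCN2.

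Each array measured 32321 probe sets, and 18405 genes were compared, each through 1 probe set. Values are log2 of the deposited intensity, and a difference is FaDU minus JHU-029. Over all probe sets, arrays of the same line correlated at 0.994 to 0.997 and arrays of different lines at 0.945 to 0.950. Median SD between the 3 arrays of a line was 0.0640 in JHU-029 and 0.0963 in FaDU. Array medians lay between 6.47 and 6.56, and the median difference over all genes was 0.05. The table holds no detection calls, so a low level cannot be told from background, and precision is limited by having 3 arrays per line.

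FaDU and JHU-029 differed across most of the genome. At an adjusted p under 0.05 (limma, Benjamini-Hochberg over the 18405 genes), 64.1% of genes were called, 33.6% as higher in FaDU and 30.4% as higher in JHU-029. With a difference of at least 2-fold asked as well, 5.79% were higher in FaDU (1066 genes) and 9.6% were higher in JHU-029 (1767 genes). At least 4-fold differences numbered 250 higher in FaDU and 439 higher in JHU-029, and at least 16-fold differences 37 and 48. Because so many genes pass, counts of list members below are read against these shares and against the median of 0.05. Many lists consist mostly of genes above the median of all probe sets in at least 1 line, for which the shares are higher. A fit of those 11978 genes alone called 80.9%, and 22.1% were called and at least 2-fold different. Their median difference was -0.03, and 47.1% of the called genes were higher in FaDU. Limma's treat test, which asks for more than 1.5-fold rather than more than 0, called 3996 genes. Small differences named below, among them those of ACTL6A, WWC1, CCN1, CCN2, CCND1, CDH1, SMAD3 and TGFB2, did not pass it.

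**Figure D1:**
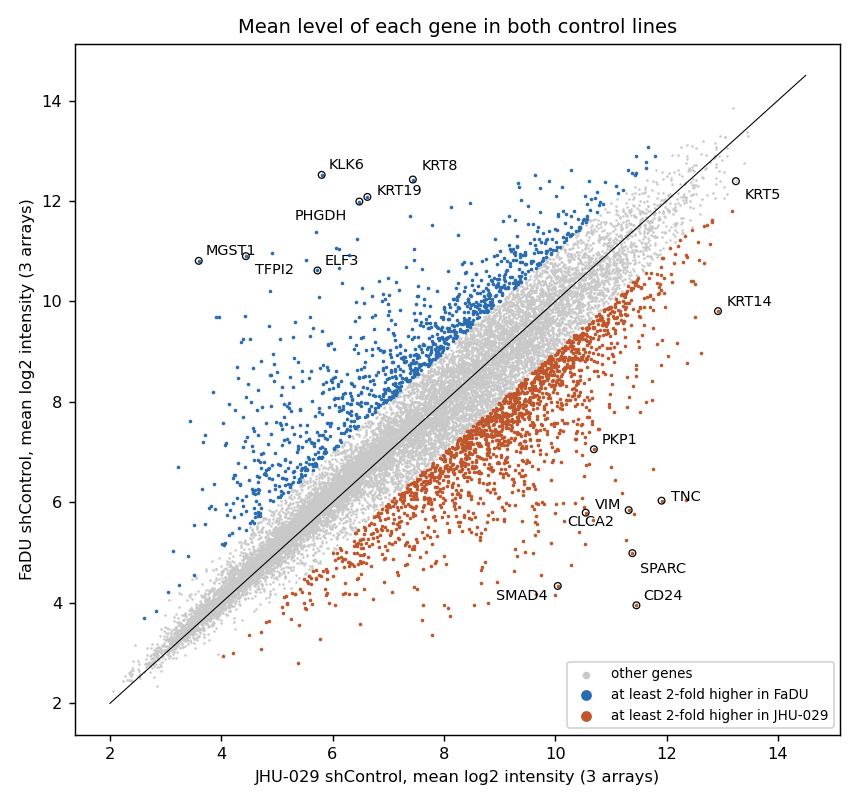
Each point is 1 of 18405 genes, placed by its mean log2 intensity over 3 JHU-029 shControl arrays (horizontal axis) and 3 FaDU shControl arrays (vertical axis), with the line of equal level drawn. Coloured points were called and differed at least 2-fold, 1066 higher in FaDU and 1767 higher in JHU-029, and named genes include MGST1 (3.60 against 10.81) and SMAD4 (10.05 against 4.34).

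Among the genes far higher in FaDU were a detoxification enzyme, proteases and their inhibitors, and simple-epithelium keratins. MGST1, a microsomal glutathione transferase, read 3.48, 3.73 and 3.58 on the JHU-029 arrays and 10.84, 10.78 and 10.81 on the FaDU arrays. That is a difference of 7.21 (SE 0.07, 148-fold, adjusted p = 7.28e-10), and the groups lay far apart. KLK6, a secreted serine protease of the kallikrein family, went from 5.75, 5.88 and 5.78 to 12.55, 12.52 and 12.49 (105-fold, adjusted p = 4.55e-10). For TFPI2, a Kunitz-type inhibitor of serine proteases, the values were 4.42, 4.60 and 4.32 in JHU-029 and 11.02, 10.83 and 10.85 in FaDU. No array of either gene came near the other line. CP, the copper-carrying ferroxidase ceruloplasmin, went from a mean of 3.90 to 9.68, PHGDH, the enzyme that commits glycolytic carbon to serine synthesis, from 6.48 to 11.99, and EREG, an EGFR ligand, from 5.71 to 11.37. The other genes of the 15 largest differences in this direction were SNORD61 and SNORD63, which are small nucleolar RNAs, KRT19, KRT8, TMEM156, EPS8, TUSC3, FKBP10 and UCA1, a long non-coding RNA, with differences of 4.92 to 6.05.

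JHU-029 in turn held high levels of matrix and surface genes that were low in FaDU. CD24, a small glycosylated surface protein, read 11.52, 11.44 and 11.42 in JHU-029 and 4.09, 3.51 and 4.26 in FaDU, a difference of -7.51 (SE 0.17, 182-fold, adjusted p = 7.78e-09). CD24 has near-identical copies elsewhere in the genome, so which copy its probes read is uncertain. SPARC, a collagen-binding matrix glycoprotein, was 11.38, 11.44 and 11.34 against 4.84, 4.92 and 5.21 (84.3-fold, adjusted p = 1.52e-09). All 3 JHU-029 arrays stood above all 3 FaDU arrays for both genes. SLC7A8, a transporter of neutral amino acids, had the next largest mean difference (12.34 against 6.04), followed by TENM2, a teneurin adhesion protein (11.28 against 5.26). TNC, MMP2, SMAD4, ME2, CLCA2, CXCL14 and INHBA, described with their groups below, and AMTN, PTPRZ1, CCDC3 and SLITRK6 completed the 15 largest, down to -5.02 for INHBA.

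A stricter description took genes above the 75th percentile of all probe sets on every array of a line and below the 25th percentile on every array of the other. It found 15 genes. Of these, 8 were high in FaDU (MGST1, TFPI2, CP, TMEM156, SNORD63, MPDZ, FERMT2 and CFI) and 7 in JHU-029 (CD24, AMTN, SMAD4, ME2, AIM2, CCL28 and ID2). FERMT2 encodes kindlin-2, an activator of integrins, and read 4.29, 4.37 and 4.40 in JHU-029 against 9.30, 9.07 and 9.20 in FaDU. AIM2, a sensor of DNA in the cytosol, read 8.87, 8.78 and 8.71 against 3.97, 4.04 and 3.98. These genes were picked by their levels in the same arrays, so no test is attached to the pattern.

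Both lines carried the defining markers of squamous carcinoma cells. All 12 measured markers of the list differed between them, 10 higher in JHU-029 and 2 in FaDU, and KRT6A and KRT17 had no probe set with a single symbol. The summed linear intensity of the 12 was 44082 to 46991 on the JHU-029 arrays and 25717 to 26104 on the FaDU arrays. EPCAM, an epithelial adhesion protein, and S100A2, a calcium-binding protein of basal cells, were the members higher in FaDU (differences of 2.16 and 0.21).

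Most markers of other cell types were low in both lines. Fibroblast markers (13 measured) summed to 1310 to 1356 in JHU-029 and 1415 to 1492 in FaDU, with 4 higher in FaDU and 2 in JHU-029. Their largest difference was that of FAP, a surface protease of activated fibroblasts, at -4.03 with a FaDU mean of 3.96, and the brightest member was FBLN1, a matrix glycoprotein (8.79 against 9.67). Immune markers (13) summed to 2328 to 2434 and 2487 to 2546, with 4 higher in FaDU and 0 in JHU-029 (limma, adjusted p under 0.05; 5 and 0 at an unadjusted p under 0.05, 2 and 1 after cyclic loess). Most of that sum came from CD68, a lysosomal protein abundant in macrophages, at 10.81 against 10.85 and not called. PTPRC, which encodes the leukocyte marker CD45, differed by 0.05 and was not called. Endothelial markers (10) summed to 513 to 532 and 830 to 855. CDH5, the cadherin of endothelial junctions, showed the largest difference among them, at 5.79, 5.94 and 5.97 in JHU-029 and 8.69, 8.65 and 8.73 in FaDU (adjusted p = 9.51e-09), while PECAM1, another endothelial junction protein, was not called (difference 0.30). ERG, an endothelial transcription factor, went the other way (7.19 against 5.50). Melanocyte and neuroendocrine markers (9) summed to 732 to 762 and 857 to 898, and MITF, the melanocyte regulator, differed by 0.90. In bulk RNA fewer cells expressing a gene and less RNA per cell cannot be told apart, and the part of other cells in the differences was not tested.

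The keratins split by type. All 5 measured basal and stress keratins were higher in JHU-029, 4 of them at least 2-fold, with a median difference of -2.10. KRT5 read 13.30, 13.20 and 13.24 in JHU-029 and 12.39, 12.39 and 12.40 in FaDU, a difference of -0.85 (SE 0.06, 1.81-fold, adjusted p = 1.91e-06). Its partner KRT14 read 13.03, 12.88 and 12.87 against 9.79, 9.89 and 9.74, which is -3.12 (SE 0.07, 8.68-fold, adjusted p = 7.9e-09). The gap was far larger for KRT14 than for KRT5, and the arrays of the lines did not overlap for either. KRT16, a keratin of wounded and fast-growing epidermis, was 7.80-fold higher in JHU-029 (10.39 against 7.42), KRT75, a hair follicle keratin, 4.29-fold and KRT15, a keratin of basal stem-like cells, 2.96-fold. KRT6A, KRT6B, KRT6C and KRT17 were not measured by a probe set with a single symbol.

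Simple keratins lay the other way, with 6 of 7 higher in FaDU, 5 of them at least 2-fold (median 1.43). KRT8 read 7.31, 7.43 and 7.59 in JHU-029 and 12.32, 12.48 and 12.49 in FaDU (31.7-fold, adjusted p = 3.12e-09). KRT18, with which KRT8 forms filaments, read 10.75, 10.72 and 10.76 against 12.10, 12.23 and 12.20 (2.70-fold, adjusted p = 1.38e-07). KRT8 thus stood far apart between the lines while its partner was well expressed in both. KRT19, which is found in simple epithelia and in dysplastic oral epithelium, read 6.47, 6.55 and 6.85 against 12.06, 12.09 and 12.09 (43.9-fold, adjusted p = 3.14e-09). KRT80 was 3.31-fold and KRT7, a keratin of glandular ducts, 2.28-fold higher in FaDU. KRT23 differed by 0.22, a call that 14 of the alternative settings lost, and KRT20 was not called. KRT8, KRT18 and KRT19 have processed pseudogene copies, with which hybridisation may be shared.

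**Figure D2:**
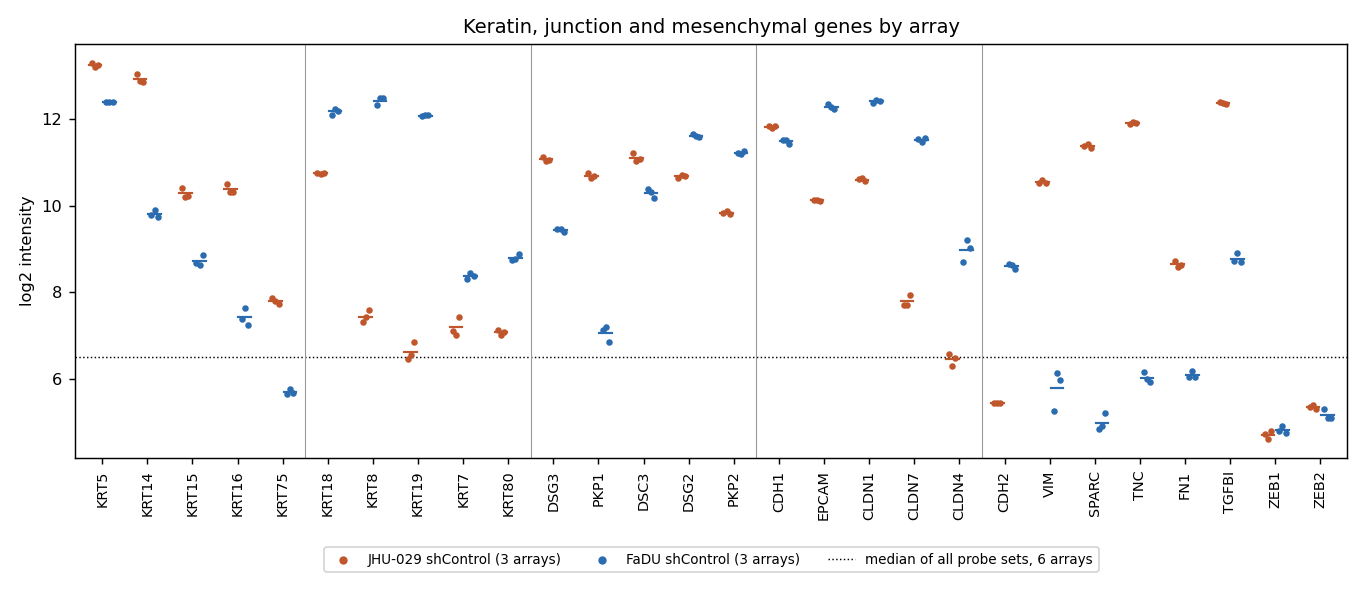
Log2 intensity of basal keratins, simple keratins, desmosome, junction and mesenchymal genes (panels separated by vertical lines) on each of the 3 JHU-029 and 3 FaDU shControl arrays, with group means as short bars and the median of all probe sets dotted. KRT14, PKP1, VIM, SPARC and TNC lay higher in JHU-029 and KRT8, KRT19, CLDN7, CLDN4 and CDH2 in FaDU without overlap, while ZEB1 and ZEB2 were not called and, with FN1, were chosen after their values were seen.

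Genes of the cell's anchorage followed the basal keratins. Of 17 hemidesmosome, integrin and laminin genes, 14 were higher in JHU-029, 8 at least 2-fold, and 0 in FaDU (limma, at an adjusted and at an unadjusted p under 0.05; median -0.84), although 1 was called higher in FaDU without FaDU replicate 3 and after quantile normalisation. ITGA6, the alpha chain of the hemidesmosomal integrin, read 12.48, 12.56 and 12.51 in JHU-029 and 9.78, 9.67 and 9.59 in FaDU (7.13-fold, adjusted p = 9.41e-09). ITGB4, its beta partner, differed less, by -0.84 (1.79-fold, adjusted p = 3.55e-06). LAMB3, a chain of the laminin to which that integrin binds, was 12.02, 11.92 and 11.97 against 9.87, 9.88 and 9.92 (4.25-fold, adjusted p = 1.66e-08). Integrin chains ITGB8, ITGB6, ITGA2, ITGA5 and ITGB5 were also at least 2-fold higher in JHU-029, with differences of -2.68 to -1.30, and LAMA5, LAMB1 and DST were not called.

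Most desmosome genes were higher in JHU-029. Of 14, 11 were higher in JHU-029 and 2 in FaDU (median -0.75). PKP1, the plakophilin of stratified epithelia, read 10.75, 10.65 and 10.69 in JHU-029 and 7.13, 7.20 and 6.85 in FaDU (12.4-fold, adjusted p = 1.4e-08). PKP2, the plakophilin of simple epithelia and heart, was higher in FaDU, at 11.22 against 9.83. The desmosomal cadherins DSG3 and DSC3 of the basal layers were higher in JHU-029 (differences of -1.63 and -0.81), as was DSG1 of the upper layers (-2.56), and DSG2, the widespread form, was higher in FaDU (0.94). Plaque proteins JUP and DSP, present in all desmosomes, were lower in FaDU by smaller amounts (-0.75 and -0.48). DSC1, DSC2, PKP3 and PKP4 were lower in FaDU as well (-0.85, -0.63, -0.79 and -0.76), so PKP2 and DSG2 were the exceptions.

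Adherens and tight junction genes tilted to FaDU, with 14 of 27 higher there and 4 in JHU-029 (5 and 0 at least 2-fold, median 0.22). CLDN7, a claudin, read 7.71, 7.72 and 7.95 in JHU-029 and 11.54, 11.48 and 11.56 in FaDU (13.3-fold, adjusted p = 5.42e-09). CLDN4 and CLDN1, further strand proteins of tight junctions, were higher in FaDU by 2.53 and 1.80, and EPCAM and CGN, the latter the plaque protein cingulin, by 2.16 and 1.36. CDH1, which encodes E-cadherin, read 11.83, 11.80 and 11.83 against 11.51, 11.53 and 11.43, a difference of only -0.34 (adjusted p = 0.000806). P-cadherin, CDH3, also lay higher in JHU-029 (-0.64), and CTNNA1 and TJP1 were not called.

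Basal and p63-associated genes other than TP63 were mostly higher in JHU-029, 30 of 37 with 15 at least 2-fold, against 1 in FaDU (median -0.81; the 1 became 3 after quantile normalisation). CLCA2, a membrane protein of keratinocytes, read 11.41, 11.26 and 11.29 in JHU-029 and 5.98, 5.60 and 5.96 in FaDU (44.5-fold, adjusted p = 4.66e-09). NRG1, an ERBB3 ligand, was 10.4-fold higher, WNT10A, a WNT ligand of ectoderm, 4.93-fold, and TRIM29, a basal epithelial regulator, 2.88-fold. BNC1, a zinc finger factor of basal keratinocytes, differed by -2.25. EGFR differed by -1.09 and stayed high in FaDU (12.20 against 11.11). SOX2, IL1RAP and FGFR3 were not called, with differences of -0.11, -0.07 and -0.06.

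Terminal differentiation genes did not move as a block. Of 53 suprabasal keratin and cornified envelope genes, 24 were higher in JHU-029 and 14 in FaDU (13 and 2 at least 2-fold, median -0.12), and the 14 became 9 after cyclic loess. S100A8, a calcium-binding alarmin, read 8.27, 7.78 and 7.96 in JHU-029 and 4.11, 5.26 and 5.45 in FaDU, the widest spread within FaDU among the genes described here with array values. KRT1 and KRT10, the pair of differentiating epidermis, were higher in JHU-029 (-2.25 and -2.30), as was SPRR2A, whose near-identical family members make its reading uncertain. PPL, the plakin periplakin, and ZNF750, a differentiation factor, were higher in FaDU (1.88 and 1.64). S100A9, the partner of S100A8, was not called (0.07).

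Kallikreins, proteases that cut desmosomal cadherins in shedding skin, were higher in FaDU in 8 of 15 cases, 5 at least 2-fold, and in 0 cases in JHU-029 (limma, at an adjusted and at an unadjusted p under 0.05; median 0.21), although 3 were called higher in JHU-029 after cyclic loess and 1 without FaDU replicate 2. After KLK6, KLK5 showed the next largest difference, with 6.10, 6.60 and 6.58 in JHU-029 and 9.98, 10.00 and 10.02 in FaDU (11.9-fold, adjusted p = 6.74e-08). KLK10 was 2.99-fold higher, and KLK9 and KLK13 differed by 1.40 and 1.02. KLK7 and KLK11 were not called. Clade B serpins, which act mostly inside cells, split into 5 of 11 higher in FaDU and 3 in JHU-029. SERPINB5, the tumour suppressor maspin, read 11.40, 11.42 and 11.39 in JHU-029 and 8.36, 8.25 and 8.37 in FaDU (8.43-fold, adjusted p = 4.43e-09), and SERPINB1 and SERPINB9, inhibitors of neutrophil proteases and granzyme B, were 3.88-fold and 3.97-fold higher in FaDU. SERPINB3 and SERPINB4 are near-identical and uncertain.

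Mesenchymal genes did not follow a single direction either. Of 32, 14 were higher in JHU-029 and 8 in FaDU, and at least 2-fold differences were 12 against 1 (median -0.09). VIM, the intermediate filament of mesenchymal cells, read 10.52, 10.60 and 10.53 in JHU-029 and 5.26, 6.15 and 5.98 in FaDU (26.9-fold, adjusted p = 1.61e-07). TNC, the matrix protein tenascin-C, had a mean of 11.91 against 6.03 (58.8-fold, adjusted p = 8.87e-10), and no array overlapped. TGFBI, a matrix protein induced by TGF-beta, was 12.1-fold and COL5A2, a fibrillar collagen chain, 6.68-fold higher in JHU-029. CDH2, which encodes N-cadherin, was the exception past 2-fold, at 5.44, 5.45 and 5.45 in JHU-029 and 8.66, 8.63 and 8.55 in FaDU (8.95-fold, adjusted p = 3.3e-09). The line with high VIM, SPARC and TNC was low in CDH2, and the reverse held for FaDU. SNAI1 and TWIST2, regulators of epithelial-mesenchymal transition, were higher in FaDU (0.49 and 0.95).

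Matrix proteases divided by member, 11 of 27 higher in JHU-029 and 8 in FaDU. MMP2, a gelatinase, read 11.45, 11.39 and 11.42 in JHU-029 and 5.60, 5.76 and 5.94 in FaDU (50.4-fold, adjusted p = 1.66e-09), with its class's inhibitor TIMP3 5.90-fold and SERPINE2, a serpin of the matrix, 7.57-fold higher in the same line. MMP12, MMP10 and MMP7, which lie close together on chromosome 11, were higher in FaDU, by 12.6-fold, 8.22-fold and 3.21-fold. Their neighbour MMP13 was higher in JHU-029 by a small amount (-0.69), and MMP14, a membrane-bound activator of MMP2, was not called (-0.01).

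YAP1 itself did not differ by the test. It read 10.83, 10.82 and 10.78 in JHU-029 and 10.81, 10.77 and 10.79 in FaDU, overlapping groups (difference -0.02, SE 0.05, adjusted p = 0.74). Of 40 Hippo pathway components, 20 were higher in JHU-029 and 11 in FaDU (7 and 3 at least 2-fold, median -0.13). AJUBA, a LIM protein that holds back the LATS kinases, read 10.32, 10.37 and 10.36 against 5.88, 6.21 and 5.86 (20.7-fold higher in JHU-029, adjusted p = 6.66e-09). TEAD2, a DNA-binding partner of YAP, and PTPN14, a phosphatase that binds YAP, were also higher in JHU-029 (-1.96 and -1.93). FaDU was higher for VGLL1, a TEAD cofactor that competes with YAP (11.9-fold), for FAT1, an atypical cadherin upstream of the kinases (6.36-fold), and for WWC1, which encodes the upstream activator KIBRA. WWC1 read 8.11, 7.95 and 8.09 in JHU-029 and 8.79, 8.60 and 8.69 in FaDU (1.57-fold, adjusted p = 6.87e-05).

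YAP and TAZ target genes were higher in JHU-029 in 17 of 26 cases and in FaDU in 8 (8 and 1 at least 2-fold, median -0.49). The FaDU count was 5 without JHU-029 replicate 2, without FaDU replicate 1 and after median centring, and 1 under the treat test, where JHU-029 had 11. CCN1 and CCN2, matricellular proteins and the usual reporters of YAP activity, were among the 8, whereas most of the list lay the other way. CCN1 read 9.33, 9.35 and 9.41 in JHU-029 and 10.05, 10.06 and 10.10 in FaDU (1.63-fold, adjusted p = 6.13e-06). CCN2 read 6.77, 6.90 and 6.90 against 7.02, 7.22 and 7.28 (1.25-fold, adjusted p = 0.00886), a small gap next to the spread of its arrays. NUAK2, a stress kinase, was 2.76-fold and NT5E, the surface enzyme CD73, 2.65-fold higher in JHU-029.

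The TEAD motif in the promoters of these targets was looked at because CCN2 and NUAK2 differ in direction. The letters GGAATG, searched on both strands in the 250 bases before the start of each gene, were present in 6 of the 18 target promoters in the RefSeq table (GRCh38.p14), which is 33.3%, against 10.0% of 14213 promoters (1423). Members that held the motif had a median difference of -0.65 and those without it -0.57, and of the 6 with it, 4 were higher in JHU-029 and 2 in FaDU. Stretches of 4 of them are printed 5′ to 3′ on the gene's strand, with the motif on either strand in capitals.
CCN2: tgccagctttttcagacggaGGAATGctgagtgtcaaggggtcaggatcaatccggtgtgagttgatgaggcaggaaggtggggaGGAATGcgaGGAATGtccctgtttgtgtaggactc
NUAK2: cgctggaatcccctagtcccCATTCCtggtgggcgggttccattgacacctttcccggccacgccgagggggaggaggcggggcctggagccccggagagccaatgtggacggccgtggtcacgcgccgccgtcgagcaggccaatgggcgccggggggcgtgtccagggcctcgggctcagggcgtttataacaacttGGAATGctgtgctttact
PTPN14: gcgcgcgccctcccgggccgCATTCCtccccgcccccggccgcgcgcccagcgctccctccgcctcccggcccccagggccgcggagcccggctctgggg
TGFB2: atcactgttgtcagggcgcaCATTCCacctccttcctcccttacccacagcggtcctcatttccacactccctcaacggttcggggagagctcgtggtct
They lie at chr6:131951442-131951561 (minus strand, CCN2), chr1:205321746-205321962 (minus strand, NUAK2), chr1:214551723-214551822 (minus strand, PTPN14) and chr1:218345131-218345230 (plus strand, TGFB2). CCN2 held 3 copies and was higher in FaDU, NUAK2 held 2 and was higher in JHU-029, and PTPN14 (higher in JHU-029) and TGFB2 (8.90 against 9.35, higher in FaDU) held 1 each. A match describes letters in a window and says nothing of binding.

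SWI/SNF subunits showed small differences, 12 of 28 higher in JHU-029 and 8 in FaDU, with 3 and 1 at least 2-fold (median -0.08). ACTL6A read 9.40, 9.41 and 9.40 in JHU-029 and 9.85, 9.77 and 9.89 in FaDU (1.35-fold, SE 0.06 on the log2 scale, adjusted p = 0.000183). The groups of arrays did not overlap. SMARCA2, an ATPase of the complex, was 2.28-fold and DPF1, a subunit best known from neurons, 5.74-fold higher in JHU-029, and BRD7, a subunit of the PBAF form, differed by 1.19 in favour of FaDU. SMARCA4, the other ATPase, and SMARCB1, a core subunit, were not called. ACTL6A lies on distal 3q with TP63 and SOX2, a region often gained in squamous carcinoma, and of 38 measured genes there 16 were higher in FaDU and 15 in JHU-029 (median -0.03). At least 2-fold differences among them numbered 5 higher in FaDU and 3 in JHU-029. USP13, a deubiquitinase of that arm, was 6.99-fold and TERC, the RNA template of telomerase, 3.25-fold higher in FaDU. KLHL24 had the largest difference toward JHU-029 (-2.78).

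SMAD4, the common partner of TGF-beta and BMP signalling SMADs, was high in JHU-029 and at the bottom of the range in FaDU. It read 10.08, 10.06 and 10.00 in JHU-029 and 4.03, 4.63 and 4.36 in FaDU, a difference of -5.71 (SE 0.13, 52.3-fold, adjusted p = 9.41e-09). All FaDU values lay under the 25th percentile of their arrays, which was 4.78 to 4.88 over the 6 arrays. Its neighbours on chromosome 18 were also lower in FaDU. ME2, a mitochondrial malic enzyme, read 9.67, 9.64 and 9.68 against 4.37, 4.19 and 3.96 (45.0-fold, adjusted p = 3.3e-09). MEX3C, an RNA-binding ubiquitin ligase, was 16.5-fold, and ELAC1, a tRNA-processing nuclease, 3.51-fold lower in FaDU, and SKA1, a kinetochore protein, differed by -2.57. Of these neighbours, ME2 alone was also under the 25th percentile on every FaDU array, while SKA1 kept a FaDU mean of 6.75. Neighbours here follow the RefSeq order of protein-coding genes whose mean passed the median of all probe sets (6.51) in at least 1 line. Any dimmer genes lying between them were skipped. In that order these 5 genes stand next to each other, with a median difference of -4.05.

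Going back from SKA1 in RefSeq order, CXXC1, MBD1, MYO5B and LIPG were lower in FaDU (-0.66, -1.27, -0.64 and -3.67). RPL17 was higher in FaDU by 0.22, and beyond it DYM and SMAD7 were lower again (-2.24 and -2.74). Past MEX3C, on the other side of SMAD4, the stretch ended. MBD2, which binds methylated DNA, is the next gene of that order, in which dimmer genes are skipped. It read 10.22, 10.27 and 10.24 in JHU-029 and 10.17, 10.24 and 10.00 in FaDU, overlapping groups that were not called (-0.11, adjusted p = 0.221). Beyond MBD2 in the same order, a further run of POLI, C18orf54, RAB27B, TCF4 and TXNL1 was lower in FaDU (median -2.34). TCF4, a basic helix-loop-helix factor, was at 9.53 against 6.28. Over 34 listed genes of the long arm, 22 were higher in JHU-029, 16 at least 2-fold, and 6 in FaDU, 1 at least 2-fold (median -0.91). PMAIP1, the BH3-only protein NOXA, was among the 22 (-2.27). CCDC68 was the member at least 2-fold higher in FaDU (3.40 against 4.94, difference 1.54, adjusted p = 4e-07). It lay under the median of all probe sets in both lines, so the runs skip it. CYB5A and CNDP2 differed by 0.71 and 0.72. Copy number was not measured.

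TGF-beta and SMAD pathway genes were higher in JHU-029 in 23 of 38 cases and in FaDU in 9 (14 and 2 at least 2-fold, median -0.63). INHBA, which encodes activin A, read 10.73, 10.65 and 10.65 in JHU-029 and 5.57, 5.76 and 5.64 in FaDU (32.5-fold, adjusted p = 8.87e-10). ID2, a BMP-induced inhibitor of helix-loop-helix factors, read 9.03, 8.99 and 8.86 against 4.62, 3.94 and 4.71 (23.3-fold, adjusted p = 1.26e-07). Both were high on every JHU-029 array. Follistatin (FST), which binds activin, and BMP4, a ligand, differed by -3.17 and -3.05. BMPR1B, a BMP receptor, was 4.02-fold higher in FaDU, SMAD3 1.37-fold, and SMAD1 was not called.

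**Figure D3:**
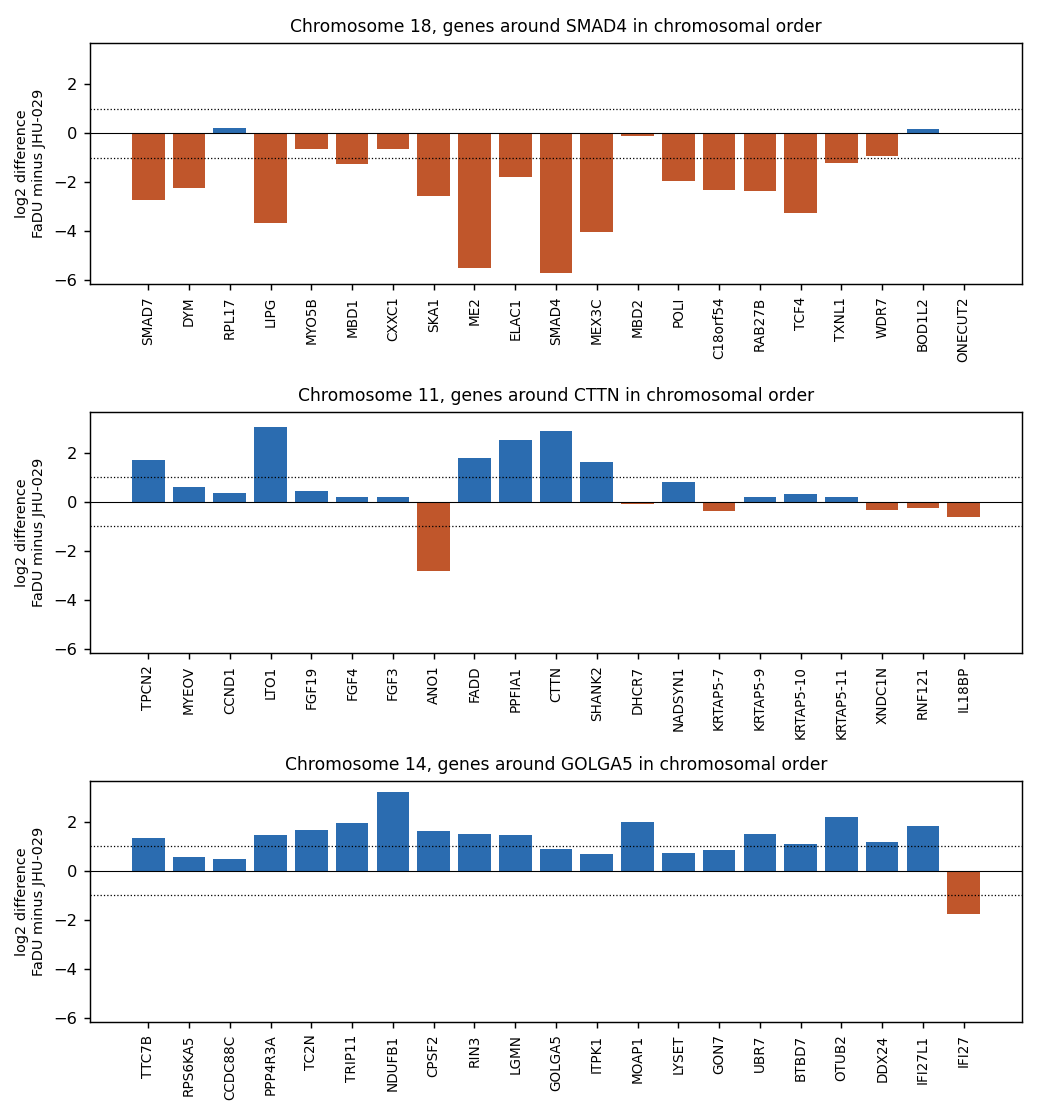
Log2 difference, FaDU minus JHU-029 shControl (3 arrays each), of genes in chromosomal order around SMAD4, CTTN and GOLGA5. Only protein-coding genes above the median of all probe sets in at least 1 line are drawn. Dotted lines mark a difference of 1 in each direction. SMAD4 and its neighbours reach -5.71, with RPL17 at 0.22 and MBD2 at -0.11 between lower genes. LTO1, FADD, PPFIA1, CTTN and SHANK2 are higher in FaDU, with ANO1 at -2.83 among them. Differences beyond SHANK2 stay under 1 in either direction. The chromosome 14 stretch is higher in FaDU until IFI27 at -1.77.

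Genes of 11q13, a band often gained in head and neck cancer, were higher in FaDU in 17 of 20 cases, 9 at least 2-fold, and in JHU-029 in 1 (median 0.72). CTTN, the actin-binding protein cortactin, read 9.66, 9.59 and 9.66 in JHU-029 and 12.58, 12.52 and 12.46 in FaDU (7.39-fold, adjusted p = 5.25e-09). FADD, the adaptor of death receptors, was 3.42-fold, PPFIA1, a liprin, 5.72-fold and LTO1, a ribosome maturation factor, 8.28-fold higher. ANO1, a chloride channel between them, read 10.38, 10.37 and 10.41 in JHU-029 and 7.64, 7.40 and 7.63 in FaDU, the reverse of its neighbours (7.13-fold higher in JHU-029, adjusted p = 1.66e-08). CCND1, which encodes cyclin D1, differed by 0.36 only (11.36 against 11.71). GAL, a neuropeptide precursor of the same band, read 6.29, 6.41 and 6.19 against 10.84, 10.98 and 10.93 (24.6-fold, adjusted p = 1.66e-09), within a run of 5 neighbours from LRP5 to CPT1A (median 1.31).

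On 9p21, 8 of 15 genes were higher in FaDU and 4 in JHU-029. MTAP, an enzyme of methionine salvage, read 5.65, 5.48 and 5.61 in JHU-029 and 8.68, 8.20 and 8.53 in FaDU (7.43-fold, adjusted p = 1.31e-07). CDKN2A and CDKN2B, cyclin-dependent kinase inhibitors beside it, were also higher in FaDU (2.89-fold, and 1.16 on the log2 scale). MLLT3 and IFNE of the same band were higher in JHU-029 (-1.45 and -1.15).

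Runs of this kind were counted over 11414 protein-coding genes placed in RefSeq order, of which 21.8% differed at least 2-fold. As around SMAD4, only genes above the median of all probe sets in at least 1 line were placed. Neighbours in a run can therefore have dimmer genes between them. There were 20 runs of at least 5 neighbours that all differed at least 2-fold the same way, 15 higher in JHU-029 and 5 in FaDU. The longest held 10 genes on chromosome 8, from ASH2L to TM2D2, with a median of -1.54. A run on chromosome 10 joined KLF6, AKR1E2 and AKR1C1, AKR1C2 and AKR1C3 (median -3.08), and the near-identical AKR1C copies may share signal. Chromosome 14 held 3 of the 5 runs higher in FaDU, among them PPP4R3A, TC2N, TRIP11, NDUFB1, CPSF2, RIN3 and LGMN (median 1.65). By whole chromosome, 20.2% of the placed genes of chromosome 14 were at least 2-fold higher in FaDU and 5.77% in JHU-029. Chromosome 20 had 1.21% and 31.2% (median -0.66) and chromosome 18 had 3.14% and 27.0% (median -0.40). The counts describe 1 line against 1 line.

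ERBB family genes differed in both directions, and other growth factor genes lay mostly higher in JHU-029. In the ERBB family, 7 of 14 were higher in FaDU and 5 in JHU-029, with 4 at least 2-fold in each direction. EREG read 5.88, 5.69 and 5.57 in JHU-029 and 11.34, 11.41 and 11.37 in FaDU (50.7-fold, adjusted p = 1.38e-09), and BTC, also an EGFR ligand, was higher by 1.74. NRG1, EPGN, HBEGF and TGFA, further ligands of the family, were higher in JHU-029 (-3.38, -1.85, -1.77 and -0.97). Among receptors, ERBB3 was 3.03-fold and ERBB2 1.40-fold higher in FaDU, and EGFR was 2.13-fold higher in JHU-029. Of 36 FGF receptor, MET and other growth factor genes, 21 were higher in JHU-029 and 6 in FaDU, 11 and 2 at least 2-fold (median -0.42), with IGF2BP2, an mRNA-binding protein, and SPRY2, a feedback inhibitor of receptor signalling, in front (-2.74 and -2.20). FGF2 was 5.25-fold higher in FaDU.

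Notch ligands and receptors took opposite sides. JAG1, a ligand, read 12.03, 12.01 and 12.05 in JHU-029 and 8.88, 9.04 and 8.84 in FaDU (8.65-fold, adjusted p = 6.76e-09), and DLL1 and JAG2 were also higher in JHU-029 (-0.81 and -0.49). The receptors NOTCH2, NOTCH3 and NOTCH1 were higher in FaDU (1.29, 1.21 and 0.62), as was NRARP, a Notch-induced feedback inhibitor (1.86). In all, 9 of 22 Notch genes were higher in JHU-029 and 8 in FaDU. WNT pathway genes were higher in JHU-029 in 20 of 44 cases and in FaDU in 13, led by DKK3, a secreted Dickkopf family member (12.4-fold higher in JHU-029), and by the coreceptors LRP6 and LRP5 (1.57 and 1.31 higher in FaDU).

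Interferon-stimulated genes were higher in JHU-029 in 37 of 51 cases, 18 at least 2-fold, and in FaDU in 11, 5 at least 2-fold (median -0.68). OAS2, an enzyme that activates RNase L on sensing double-stranded RNA, read 10.56, 10.47 and 10.53 in JHU-029 and 6.64, 6.34 and 6.62 in FaDU (15.9-fold, adjusted p = 7.37e-09). RIGI, a cytosolic sensor of viral RNA, read 10.66, 10.56 and 10.63 against 7.75, 7.64 and 7.74 (7.50-fold, adjusted p = 5.42e-09). No array of either gene overlapped the other line. MX1 and MX2, antiviral GTPases, differed by -1.91 and -1.97. In the other direction BST2, or tetherin, which holds budding virions, read 6.05, 5.90 and 5.82 against 8.60, 8.59 and 8.70 (6.53-fold, adjusted p = 1.73e-08), and LGALS3BP, a secreted galectin-3 ligand, was 2.96-fold higher in FaDU. CD274, which encodes PD-L1, was 3.33-fold higher in FaDU, and so was IFITM2 (5.88-fold), whose near-identical family members leave its reading uncertain. PARP9 and CMPK2 were not called.

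The interferon-stimulated response element was compared across the list because its members lay on both sides. Its core GAAANNGAAA, with N for any base and both strands searched in the same 250 bases, was present in 23 of the 41 promoters found in the table (56.1%), against 365 of 14213 (2.57%). Of the 23, 17 were higher in JHU-029, 5 in FaDU and 1 was not called. The median difference was -0.68 with the element and -0.97 without, and members with it lay on both sides. Promoter stretches of 3 genes higher in JHU-029 (IFIT1, IFI27 and DDX60, chosen after their values were seen) and of 2 higher in FaDU are shown, the element in capitals on whichever strand.
IFIT1: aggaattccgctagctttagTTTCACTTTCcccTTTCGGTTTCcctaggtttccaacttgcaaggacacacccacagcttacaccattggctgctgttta
IFI27: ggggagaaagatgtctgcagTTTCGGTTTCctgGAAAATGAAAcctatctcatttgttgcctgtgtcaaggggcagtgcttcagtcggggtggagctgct
DDX60: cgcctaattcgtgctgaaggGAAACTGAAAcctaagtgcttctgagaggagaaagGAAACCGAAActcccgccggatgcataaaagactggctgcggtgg
BST2: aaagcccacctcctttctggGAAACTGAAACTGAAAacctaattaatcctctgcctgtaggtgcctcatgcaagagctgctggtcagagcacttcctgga
LGALS3BP: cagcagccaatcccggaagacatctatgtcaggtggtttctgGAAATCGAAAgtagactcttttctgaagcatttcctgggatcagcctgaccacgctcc
The windows are chr10:89392487-89392586 (plus strand, IFIT1), chr14:94110608-94110707 (plus strand, IFI27), chr4:168318761-168318860 (minus strand, DDX60), chr19:17405681-17405780 (minus strand, BST2) and chr17:78979924-78980023 (minus strand, LGALS3BP). IFIT1 read 9.93, 9.69 and 9.74 in JHU-029 and 8.42, 8.42 and 8.42 in FaDU, a difference of -1.36 with 2 elements in its window. IFI27 differed by -1.77 and DDX60 by -1.31, also with 2 elements each. BST2 held 2 overlapping elements and LGALS3BP 1, and both were higher in FaDU.

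**Figure D4:**
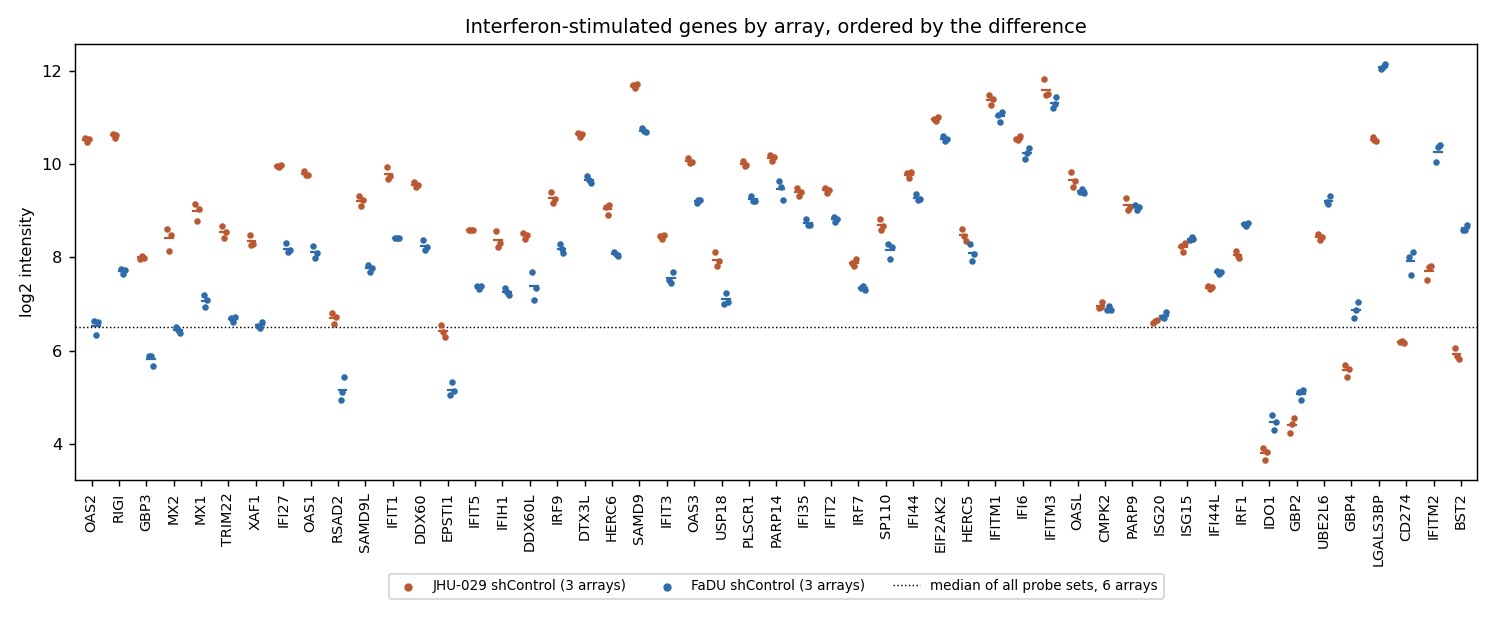
Log2 intensity of the 51 measured interferon-stimulated genes on each of the 3 JHU-029 and 3 FaDU shControl arrays, ordered by the difference, with group means as short bars and the median of all probe sets dotted. From OAS2 at the left (-3.99) most genes lie higher in JHU-029, and GBP4, LGALS3BP, CD274, IFITM2 and BST2 at the right lie at least 2-fold higher in FaDU.

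Antigen presentation ran against the interferon list. Of 13 measured MHC class I pathway genes, 9 were higher in FaDU and 1 in JHU-029 (median 0.76). The immunoproteasome subunits PSMB8 and PSMB10 were 3.87-fold and 4.01-fold higher in FaDU. B2M, the light chain of class I molecules, read 11.17, 11.11 and 11.06 in JHU-029 and 12.08, 12.01 and 12.05 in FaDU (1.91-fold, adjusted p = 1.42e-06). The peptide transporter chain TAP1 was the member higher in JHU-029 (-0.60), while TAP2 was higher in FaDU by 0.76 through the probe set used and turned to -1.02 (adjusted p = 0.102) through its lowest one. Of 9 measured MHC class II genes of 12 listed, 0 were called (limma, at an adjusted and at an unadjusted p under 0.05), although 5 were called in at least 1 alternative, among them HLA-DOB after quantile normalisation and after cyclic loess. HLA-DMA differed by -0.07 but by 2.19 through its lowest probe set.

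AIM2 and PYCARD, parts of an inflammasome, were lower in FaDU, but related genes did not all follow. CASP1 differed by -0.70, NLRP3 was not called (-0.09), and GSDMD was higher in FaDU (1.00). AIM2 was 27.7-fold and PYCARD, the adaptor ASC, 8.70-fold higher in JHU-029, with PYCARD at 10.43, 10.34 and 10.37 against 7.09, 7.34 and 7.35. Of the 19 interleukin-1 family genes, 8 were higher in FaDU and 6 in JHU-029. IL1A, an alarmin cytokine, was 3.92-fold higher in JHU-029 and IL1RL1, the receptor of IL-33, 4.25-fold higher in FaDU. Chemokines divided by member, with 15 of 33 chemokine and cytokine genes higher in FaDU and 11 in JHU-029. CXCL8, which draws neutrophils, was 5.39-fold and CXCL1, of the same class, 4.29-fold higher in FaDU. CXCL14, a chemokine made constitutively by epithelium, read 11.84, 11.69 and 11.72 in JHU-029 and 6.74, 6.70 and 6.58 in FaDU (33.7-fold, adjusted p = 9.92e-10), and CCL28, a mucosal chemokine, was 24.4-fold higher in JHU-029. TNFAIP2 and ICAM1, induced by TNF, were 18.5-fold and 6.03-fold higher in FaDU. Of 17 complement genes, 9 were higher in FaDU and 4 in JHU-029, with CFI, a protease that degrades C3b, 17.3-fold and C3, the central component, 2.86-fold higher in FaDU. CFB differed by 0.83 but by -0.39 through its lowest probe set.

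NRF2-type detoxification genes split almost evenly, 17 of 45 higher in JHU-029 and 15 in FaDU (median -0.03). Aldo-keto reductases were higher in JHU-029, with AKR1C2 at 10.19, 10.09 and 10.20 against 5.54, 5.33 and 6.04 (23.0-fold, adjusted p = 6.35e-08), and AKR1C1 10.2-fold, though AKR1C copies are near-identical and uncertain. GSTM3, a glutathione transferase, and ABCC3, an efflux pump, were 6.17-fold and 4.63-fold higher in the same line. NQO1, a quinone reductase, was 2.62-fold higher in FaDU. GCLM, the modifier subunit of the enzyme that limits glutathione synthesis, read 7.61, 7.54 and 7.56 in JHU-029 and 9.74, 9.80 and 9.81 in FaDU (4.63-fold, adjusted p = 1.24e-08). TXNRD1, thioredoxin reductase, read 9.61, 9.48 and 9.43 against 11.57, 11.47 and 11.61 (4.13-fold, adjusted p = 5.82e-08). Both therefore lay apart in the direction opposite to the AKR1C genes.

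The antioxidant response element, to which NRF2 binds, was searched in the promoters of the list as TGACNNNGC on both strands. It was present in 10 of 36 promoters (27.8%), against 1679 of 14213 (11.8%). Members with it had a median difference of 0.44 and those without it -0.15, and 7 of the 10 were higher in FaDU and 3 in JHU-029. GCLM and TXNRD1 are shown with the element in capitals, at chr1:93909431-93909530 (minus strand, GCLM) and chr12:104215660-104215759 (plus strand, TXNRD1).
GCLM: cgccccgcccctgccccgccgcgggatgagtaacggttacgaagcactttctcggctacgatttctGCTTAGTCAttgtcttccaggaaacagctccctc
TXNRD1: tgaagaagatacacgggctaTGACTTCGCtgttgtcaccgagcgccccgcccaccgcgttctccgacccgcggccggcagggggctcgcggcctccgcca
Each held 1 match.

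Metabolic lists showed large single differences around small medians. Of 27 retinol and retinal genes, 17 were higher in FaDU and 7 in JHU-029 (median 0.35), and the 17 became 11 after cyclic loess. LRAT, which esterifies retinol, was 3.75-fold higher in FaDU, and CRABP2, a carrier of retinoic acid, 7.41-fold higher in JHU-029. ALDH1A3, which makes retinoic acid, was 5.06-fold higher in FaDU through the probe set used (adjusted p = 1.02e-08), but its other probe set gave -1.46 (adjusted p = 2.4e-06), so its direction is unsettled. Among 37 serine synthesis and ATF4 stress genes, 16 were higher in each line, with PHGDH (45.5-fold) and GDF15, a stress cytokine (9.25-fold), in FaDU and DDIT3, the stress factor CHOP (4.72-fold), in JHU-029. PHGDH read 6.57, 6.41 and 6.47 against 11.96, 11.97 and 12.03, with no overlap. Glycolysis and hypoxia-inducible genes were higher in JHU-029 in 14 of 35 cases and in FaDU in 13. CA12, a membrane carbonic anhydrase, was 14.2-fold and PGK1, a glycolytic kinase, 2.30-fold higher in JHU-029, whereas HK2, the hexokinase that opens glycolysis, was 2.18-fold higher in FaDU. Cholesterol and fatty acid synthesis genes divided 12 to FaDU and 11 to JHU-029 of 26, with NSDHL, a sterol dehydrogenase, 4.87-fold higher in JHU-029 and ELOVL6, a fatty acid elongase, higher by 1.77 in FaDU.

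Genes activated by p53 family proteins were higher in JHU-029 in 17 of 29 cases and in FaDU in 10 (9 and 2 at least 2-fold, median -0.27). CDKN1A, the cell cycle inhibitor p21, read 9.50, 9.57 and 9.53 in JHU-029 and 7.54, 7.80 and 7.82 in FaDU (3.53-fold, adjusted p = 2.54e-07), and TP53INP1, a stress-response cofactor, was 15.7-fold higher in JHU-029. XPC, a damage-recognition protein, and FAS, a death receptor, were higher in FaDU (1.92 and 0.93). BCL2L1, which encodes BCL-XL, was 4.06-fold higher in JHU-029 and BIRC5, or survivin, higher in FaDU by 0.69. BBC3 and BID were not called.

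Proliferation genes were tilted to FaDU by small amounts. Of 41 S phase genes, 25 were higher in FaDU and 8 in JHU-029 (median 0.29), and of 51 G2 and M phase genes 30 and 11 (median 0.33), but only 2 in each direction reached 2-fold in either list. PCNA, the DNA clamp, and CCNA2, cyclin A2, were not called, each with a difference of -0.02. Regulators differed more: CDK6, a G1 kinase, read 11.47, 11.53 and 11.50 in JHU-029 and 9.29, 9.07 and 8.92 in FaDU (5.29-fold, adjusted p = 1e-07), and CCND2, cyclin D2, was 5.92-fold higher in FaDU. Cytosolic ribosomal protein genes were higher in FaDU in 29 of 45 cases and in JHU-029 in 8 (10 and 2 at least 2-fold, median 0.30). The 8 became 5 without JHU-029 replicate 3. These genes have many processed pseudogenes and several probe sets, and RPS9, higher in FaDU by 1.48, gave -0.69 (adjusted p = 0.00976) through its lowest probe set.

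Transcription factors of epithelial lineages were higher in JHU-029 in 27 of 62 cases and in FaDU in 23. ELF3, an ETS factor of simple and secretory epithelia, read 5.93, 5.64 and 5.62 in JHU-029 and 10.50, 10.65 and 10.70 in FaDU (29.6-fold, adjusted p = 4.66e-09). FOXA1, a pioneer factor of glandular epithelium, was 4.65-fold and PAX9, a factor of oral and pharyngeal epithelium, 5.38-fold higher in FaDU. KLF4, a factor of differentiating epidermis, was 4.57-fold and IRX4, an Iroquois homeobox factor, 5.24-fold higher in JHU-029. Of 31 membrane mucin and secretory epithelium genes, which include ELF3 and FOXA1, 13 were higher in FaDU and 3 in JHU-029 (3 and 2 at least 2-fold, median 0.19). LCN2, the siderophore-binding protein lipocalin-2, was higher in FaDU by 1.35, and EHF had the largest difference toward JHU-029 (-1.15). Only 13 of the 31 passed the median of all probe sets in at least 1 line. HOX genes were divided evenly, 10 of 27 in each direction, though 6 rather than 10 were higher in FaDU without JHU-029 replicate 2. HOXC13, a hair and nail factor, was 4.51-fold higher in JHU-029 and HOXB7 2.12-fold higher in FaDU.

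**Figure D5:**
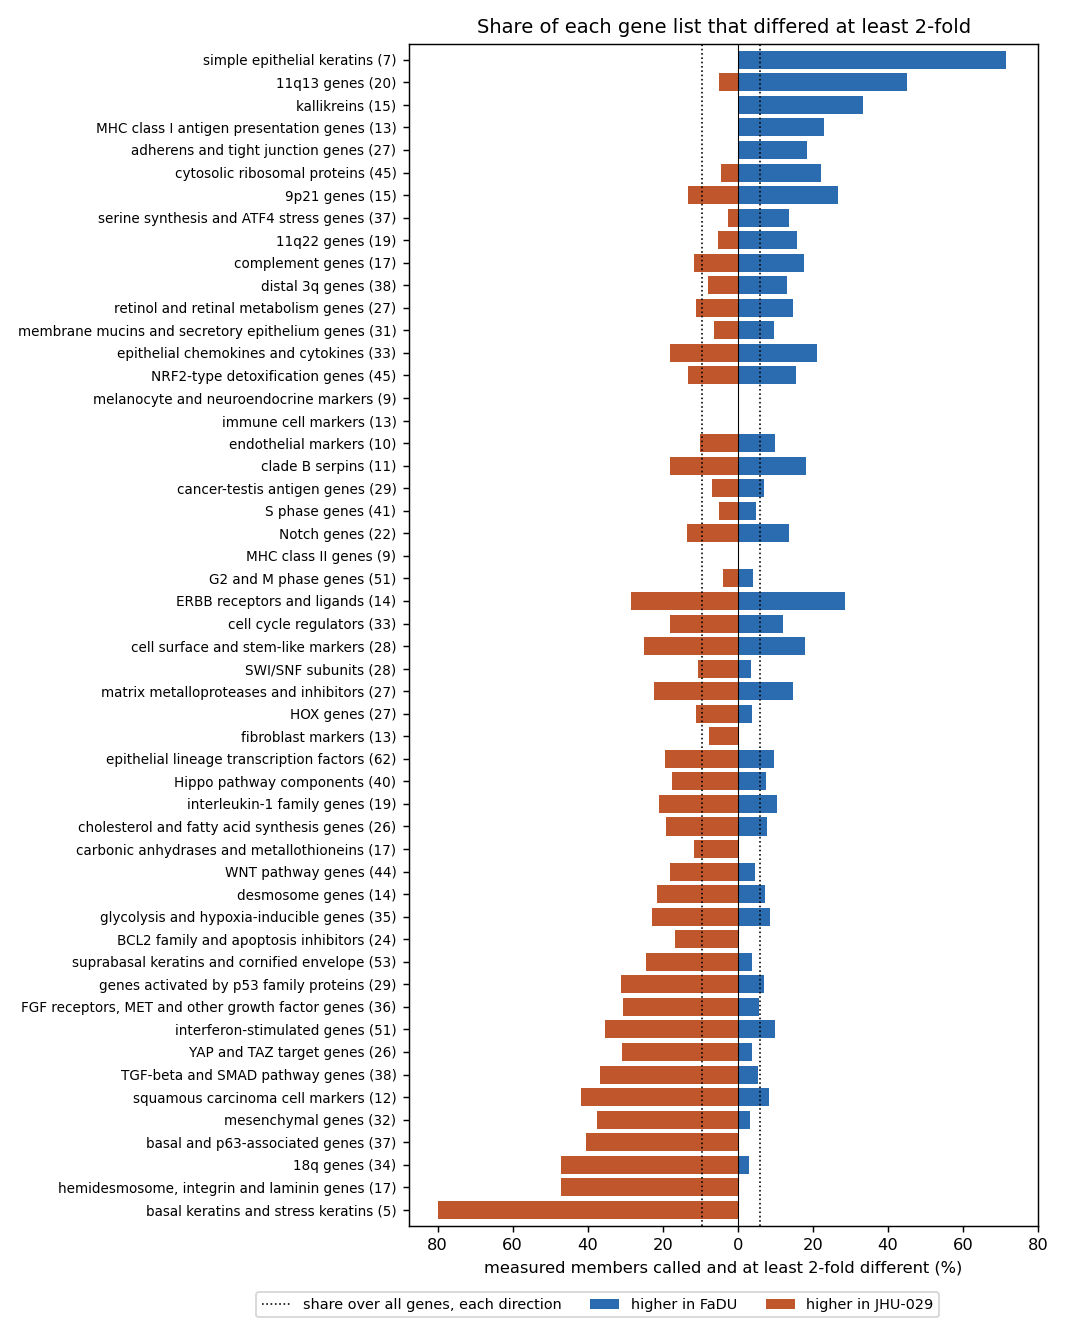
For each gene list (number of measured members in brackets), bars give the percentage of members called and at least 2-fold higher in FaDU (right) or JHU-029 (left), and dotted lines the shares over all genes, 5.79% and 9.6%. Simple epithelial keratins, 11q13 genes and kallikreins exceed the share to the right, and basal keratins, hemidesmosome genes and 18q genes to the left.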

How the data were processed

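Per the submitters' processing notes, the authors deposited intensity values made by robust multi-array averaging (RMA) in R 2.15.1. Per the labels' protocols, total RNA was extracted with Qiagen kits and biotin-labelled by in vitro transcription. The RMA implementation, probe set definition, array build and joint or separate normalisation of the 12 arrays are not given in the sources used here. Values proved linear, and log2 was taken with no pseudocount.

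Of 32321 probe sets, 19159 had 1 gene symbol, 1387 several and 11775 were not listed, and these last were left out. Through Entrez gene ID 19129 matched the RefSeq table (GRCh38.p14), and 0 were renamed. For the 637 genes with several probe sets, the brightest on average across the 12 arrays was used, and in 57 of these genes probe sets were called in opposite directions. The level of TP63 is not reported here.

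Only the 6 shControl arrays were fitted (limma 3.58.1 in R 4.3.3, two-sided moderated test, 4 residual and 4.17 prior degrees of freedom, Benjamini-Hochberg over 18405 genes, threshold 0.05). SE is the fit's and SD is over 3 arrays. The 52 lists (1413 genes, 1276 measured) are described by counts and medians, with no set test. Members and lists were chosen with earlier results of these data known. Named genes were KRT5, KRT14, ACTL6A, WWC1, YAP1, CCN1 and CCN2, the 15 largest per direction above the median of all probe sets, up to 5 called per direction and 3 missed members per list (all of lists of up to 20), the 10 largest per direction of genes high in 1 line and low in the other, and genes of neighbour runs. Promoters are 250 bases before RefSeq starts. On data simulated with the spread of these arrays (18405 genes, 200 changed), 11.2%, 92.8%, 100% and 100% were recovered at log2 sizes of 0.25, 0.5, 1 and 2. In the real comparison 64.1% of genes were called, which makes the Benjamini-Hochberg cutoff less strict than with 200 changed genes. The simulated recovery of small differences therefore does not describe the real comparison.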

Additional observations from a re-analysis of the deposited data

How the results depend on the processing

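Called genes numbered 10528 to 11580, and those at least 2-fold different 2807 to 2857, when each array was left out in turn. Leaving out both FaDU arrays titled new left 1 FaDU array, and the median difference over all genes was 0.038 against 0.054. That setting is among the alternatives counted below. A replicate block gave 11694 and 2833. Replicate numbers are those of the descriptions, where both lines have 1 to 3, while titles number the FaDU arrays 2 to 4. Same-numbered arrays deviated together at correlations of 0.09, 0.04 and -0.07 (-0.01 and 0.15 for the numbers that the titles share). Whether the numbers pair the samples cannot be decided from 3 arrays per line, and the main fit used no pairing. Limma's treat against 1.5-fold called 3996 genes, and every probe set as its own item gave 4346 at least 2-fold different. Quantile, cyclic loess and median-centred values, an added 16, the filter on dim probe sets, a trended robust prior, all 12 arrays in the fit and the choice of probe set kept both counts within 1.5 times. Through the lowest probe set of a gene, directions turned for ALDH1A3 (-1.46), C2 (-0.88), CFB (-0.39), HLA-DMA (2.19), RPS9 (-0.69) and TAP2 (-1.02), and through the mean over probe sets for C2 (-0.33), HLA-DMA (1.06) and TAP2 (-0.23). The cause was not tested. Of the 736 genes open to naming, 572 were called, of which 135 missed the threshold in at least 1 alternative, treat included, and 76 of the 164 others passed in at least 1. The smallest called difference was 0.137, and low intensities bound what can be seen in either line.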

Other observations

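Of 42 listed cancer-testis antigen genes, normally silent outside the germ line, 29 were measured. Of these, 20 were not called, 6 were higher in FaDU and 3 in JHU-029. Only 6 of the 29 passed the median of all probe sets in at least 1 line, and their median level was 4.70 in JHU-029 and 4.52 in FaDU for the whole list. A member not called may therefore lie near background in both lines. MAGEA4 read 5.54, 5.33 and 5.90 in JHU-029 and 9.28, 9.29 and 9.39 in FaDU (13.3-fold, adjusted p = 6.09e-08), and the resemblance of MAGEA genes makes its reading uncertain. PRAME, another antigen of this class, was 4.24-fold higher in FaDU (6.93 against 9.01). DDX43, an RNA helicase, was higher in JHU-029 (-1.30).

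Carbonic anhydrases other than CA12 and the metallothioneins differed little. Of 17 genes, 7 were higher in FaDU and 4 in JHU-029, and the 7 became 4 without JHU-029 replicate 2, without FaDU replicate 3 and after median centring. MT1F, a metal-binding metallothionein with near-identical relatives, differed by -1.01. Among cell surface markers, 14 of 28 were higher in JHU-029 and 9 in FaDU. EPHA4, an ephrin receptor, and its ligand EFNB2 were both higher in JHU-029 (-3.19 and -2.61), and CD9, a tetraspanin, and LY6E, a small lipid-anchored protein, were higher in FaDU (1.18 and 1.34).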
